A study of Mus musculus with 20 samples.

Results

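Oxidative phosphorylation runs in the inner mitochondrial membrane, where complexes I to IV pass electrons from NADH and succinate to oxygen and pump protons, and complex V, the ATP synthase, uses the proton gradient to make ATP. Its subunits come from both genomes of the cell: most are encoded in the nucleus, made in the cytosol and imported, and a small core is transcribed from the circular mitochondrial DNA and translated inside the organelle. Neurons depend heavily on it, and complexes I, III, IV and V cannot be assembled without both sets of subunits, while complex II is wholly nuclear.

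The genes described here are the protein-coding mouse genes whose symbol starts with Nduf, Uqcr, Cox4, Cox5, Cox6, Cox7, Cox8 or Atp5, the 4 succinate dehydrogenase genes, Cyc1, and the 13 protein-coding genes of mitochondrial DNA. Of 53801 genes in the tables, 107 have such a name, and 101 of them had a mean of at least 1 CPM (CPM is the usual unit of a count scaled to the library's total) over the 20 libraries: 88 nuclear genes and all 13 mitochondrial genes. The nuclear genes are 36 complex I genes, 8 assembly factors of complex I, 4 genes of complex II, 9 of complex III, 14 of complex IV and 17 of complex V. Ndufa4 is counted with complex I by its name, although it is now known to associate with complex IV. All 101 passed the filter on low counts, and all were tested.

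The samples were total RNA of mouse hypothalamus, depleted of ribosomal RNA and sequenced as 20 libraries. C57BL/6J mice (WT) were compared with double mutants (KO) in which Magel2 and Ndn, neighbouring paternally expressed genes of the Prader-Willi syndrome region, are both deleted; the labels name this line MADIN. Each genotype was sampled by day, 6 h after light on, and at night, 18 h after light on, with 5 libraries in each of the 4 groups. Neither an age nor a sex is used here. Separate animals are not stated for the libraries, so the p-values cover the spread between these samples, which may be technical. In bulk RNA, fewer cells of a type and less RNA per cell cannot be told apart.

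Several libraries go against their labels or stand apart. Library totals ran from 32066289 to 48697647 counts. Ndn stood between 239 and 346 CPM in 9 WT libraries and between 0.248 and 1.01 CPM in the KO libraries, but at 31.0 CPM in WT day library 3, where Magel2 was at 2.15 CPM against 15.6 to 19.5 CPM in the other WT libraries. In 6 libraries the time in the sample title and the time in the sample's time field disagree: WT night 1, KO day 1 and 2, and KO night 1, 2 and 3. Time was taken from the title, except in KO day library 5, whose title gives none and whose time field says day. The calls between the genotypes at night and averaged over both times are also given for the 14 libraries without such a conflict, which leave 4 WT and 2 KO libraries at night. WT day libraries 4 and 5 share a sample name (DW4) in their titles and differ in the number after it. Over nuclear genes with at least 20 counts in the pair, their counts differed by a chi-square of 6.78 per degree of freedom, where sampling noise alone gives about 1 and the pairs of libraries within a group ran from 4.78 to 49.8, so they were kept as separate libraries; whether they come from 1 animal is not stated. The hypothalamic neuropeptide genes Avp, Oxt, Hcrt and Pmch were present in every library, the lowest at 50.04 CPM (Hcrt), and the feeding genes Agrp and Pomc were at 23.3 CPM or more.

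All levels below are CPM scaled by the trimmed mean of M values (TMM), which sets the library totals on a common scale. Summed over the 88 nuclear genes, the level was 5803, 5757, 5941, 5787 and 5911 CPM in the WT day libraries and 5218, 5273, 4997, 5833 and 5477 CPM in the WT night libraries. In KO mice the sum was 5705, 5372, 5273, 6059 and 5879 CPM by day and 5955, 6520, 5992, 5255 and 5770 CPM at night. WT night libraries 1, 2 and 3 were the lowest of the WT libraries, WT night 4 was within the WT day range, and the KO night libraries spanned from near the lowest to the highest of all 20.

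The 13 mitochondrial genes summed to 8885 ± 385 CPM in WT by day, 8620 ± 385 CPM in WT at night, 9234 ± 839 CPM in KO by day and 8640 ± 1086 CPM in KO at night (SD, n = 5 in each). The group means thus differed by less than the spread within the KO groups. On the log2 scale the ratio of the nuclear to the mitochondrial sum was -0.60 ± 0.07 in WT by day, -0.69 ± 0.06 in WT at night, -0.70 ± 0.07 in KO by day and -0.54 ± 0.11 in KO at night (SD, n = 5 in each). All 4 groups overlapped in this ratio, and KO night libraries 1 and 4, at -0.40 and -0.46, had the highest values of all 20. Those 2 libraries had the lowest mitochondrial sums, 7838 and 7249 CPM. KO night library 3 had the lowest ratio of its group, -0.67, and its mitochondrial sum of 9525 CPM held 871 CPM of mt-Nd6. In the other KO night libraries mt-Nd6 was at 69.7 to 268 CPM. A ratio without mt-Nd6 was not computed, so the overlap of the genotypes at night is not free of this gene. In KO night library 4 the 2 mitochondrial ribosomal RNAs took 14.99% of the counts, against 18.4 to 22.6% in the other 19 libraries.

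**Figure D1:**
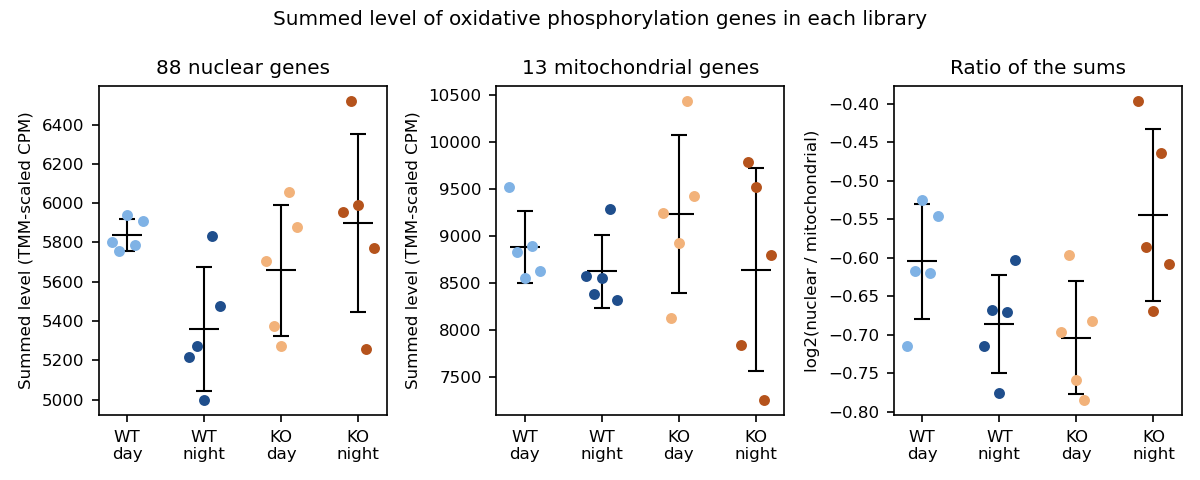
Each point is 1 library, placed by its group on the horizontal axis; black bars are the group mean and SD (n = 5). The vertical axes give the summed TMM-scaled CPM of the 88 nuclear genes (left) and of the 13 mitochondrial genes (middle), which do not start at 0, and the log2 ratio of the sums (right); WT night has the lowest nuclear mean, 5360 CPM, while the mitochondrial sums of the 4 groups overlap.

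At night, 18 of the 88 nuclear genes were higher in KO than in WT and none was lower, by edgeR's quasi-likelihood test with Benjamini-Hochberg adjustment over all 22181 genes tested (adjusted p under 0.05 is called). None of the 13 mitochondrial genes was called in either direction. Of them 2 had an unadjusted p under 0.05, as had 6634 of all 22181 genes tested. The calls were 20.5% of the nuclear genes. Over all genes tested, 5.18% were called higher in KO at night, 11.9% were called in either direction, and of 14016 protein-coding genes with a mean of at least 1 CPM 6.92% were called higher. The median log2 change was 0.15 over the nuclear genes, with 81 of 88 above 0, -0.01 over the mitochondrial genes, with 6 of 13 above 0, and 0.01 over all genes tested. Leaving out 1 library at a time moved the nuclear median between 0.096 and 0.19 and the mitochondrial between -0.063 and 0.045. The difference between the nuclear and the mitochondrial medians was not tested.

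The count at night rests on few libraries. It was 0 in the 14 libraries without a conflict of title and field, 0 with the groups drawn by the time field, and 0 without WT night libraries 1, 2 and 3. The share of all genes called in those fits was 0.0263%, 0.0179% and 0.0479%, against 11.9% as reported; the share over all genes fell with the count. The count was 1 without WT night library 1, without WT night library 3 or without KO night library 2, where 1.28%, 0.546% and 1.32% of all genes were called. It was 3 without KO night library 3 (2.29% of all), 8 without WT night library 2 (8.25%) and 9 without KO night library 1 (10.3%). It was 11 without WT night library 5 (9.53% of all), without WT day library 3 (10.3%) or without KO day library 5 (10.3%). It was 51 without KO night library 4 and 42 without WT night library 4, with 19.02% and 19.5% of all genes called. Without WT night library 4, the nuclear gene Ndufs4 was called lower and the mitochondrial gene mt-Co3 higher. The libraries whose removal ended most calls were WT night 1 and 3 and KO night 2 and 3. Title and field agree for WT night 3 and differ for the others. They differ for KO night 1 as well, whose removal left 9 calls.

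**Figure D2:**
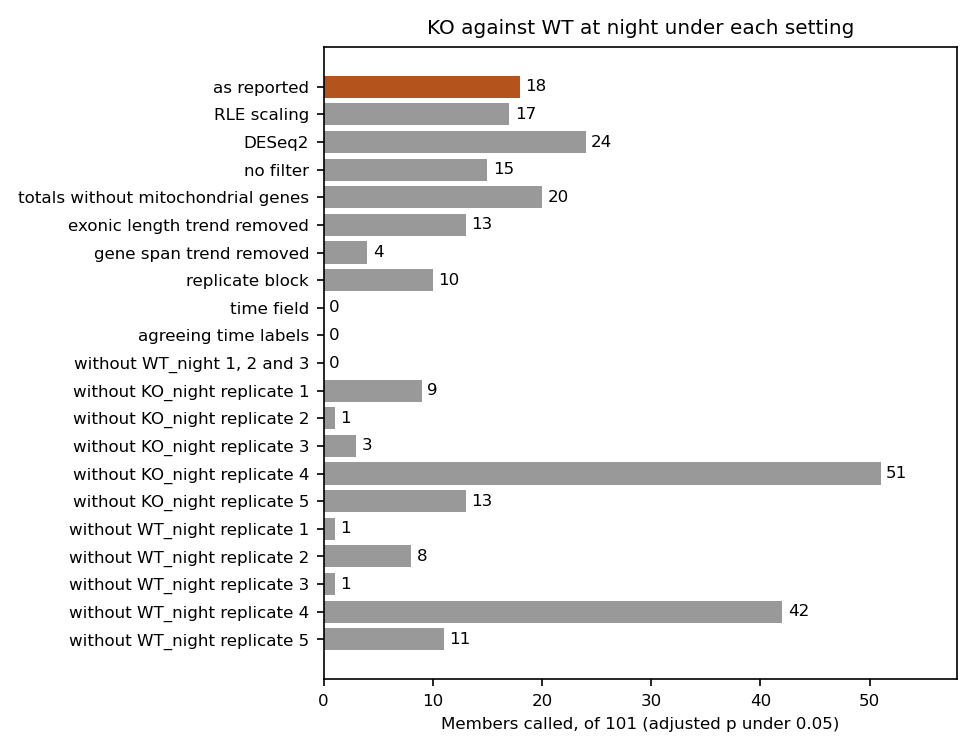
Bars give the number of the 101 genes called (adjusted p under 0.05) for KO against WT at night, as reported (top, 18) and under alternative fits. The lowest block leaves out 1 night library at a time, and the fits that leave out a day library are not drawn. The count ranges from 0 to 51, and is 0 in each of the 3 fits that change or leave out libraries by their time labels or leave out WT night libraries 1, 2 and 3.

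Complex V held the gene with the largest change among those called at night. Atp5k encodes subunit e of the membrane part of the ATP synthase, which helps the enzyme pair into dimers. Its level at night was 23.8, 23.8, 23.5, 28.3 and 26.5 CPM in WT and 30.4, 36.1, 29.9, 32.1 and 30.1 CPM in KO. The night groups did not overlap, and the 3 lowest values were those of WT night libraries 1, 2 and 3. By day it was 29.6, 28.4, 28.8, 28.8 and 30.8 CPM in WT and 29.9, 25.6, 24.4, 29.9 and 26.2 CPM in KO, so that every WT night library lay below every WT day library, and the KO night libraries lay within or above the WT day range. Atp5k rose by 0.33 ± 0.07 (log2 change ± SE, 1.26-fold) in KO at night, with an edgeR adjusted p of 0.0100. It was called in 27 of 30 alternative fits, of which 20 leave out 1 library each. It was not called with the time field, with agreeing time labels or without WT night libraries 1, 2 and 3. The other genes called at night were called in 5 (Uqcr11) to 24 (Cyc1 and Uqcrc1) of the 30 fits, with Uqcrq, Atp5a1 and Sdhb in 9 and Ndufa8 in 12.

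Atp5e, the epsilon subunit in the catalytic head's central stalk, was at 32.9, 33.3, 28.7, 34.4 and 37.2 CPM in WT at night and at 42.6, 46.3, 40.4, 35.5 and 37.6 CPM in KO at night. KO night library 4 lay inside the WT range. The rise was 0.28 ± 0.08 on the log2 scale (edgeR adjusted p = 0.0291). Atp5g3, 1 of 3 genes that encode the same mature c-ring subunit, was at 66.7, 73.1, 66.8, 71.7 and 77.5 CPM in WT at night and 84.8, 97.8, 81.3, 73.1 and 79.5 CPM in KO at night, a rise of 0.23 ± 0.07 (edgeR adjusted p = 0.0364). Its paralogue Atp5g1 rose by 0.17 ± 0.05 and Atp5a1, the alpha subunit of the catalytic head, by 0.17 ± 0.06; for both, the night values of the genotypes overlapped. The other paralogue, Atp5g2, had a change of 0.15 ± 0.06 and was not called (edgeR adjusted p = 0.102). In all, 5 of 17 complex V genes rose, and 16 of 17 had a change above 0.

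Complex III had 4 of 9 genes called, and all 9 had a change above 0. Uqcrc1, a core protein of the complex, was at 100.6, 107.7, 96.0, 109.7 and 107.0 CPM in WT at night. In KO at night it was at 116.1, 132.0, 125.2, 116.5 and 114.5 CPM, above every WT night value. The rise was 0.21 ± 0.05 on the log2 scale (edgeR adjusted p = 0.0180). Cyc1, the cytochrome c1 that hands electrons to cytochrome c, was at 35.1, 35.8, 33.7, 38.1 and 40.5 CPM in WT at night and at 40.2, 47.7, 41.2, 43.0 and 42.8 CPM in KO at night. WT night library 5 and KO night library 1 crossed over. Cyc1 rose by 0.23 ± 0.05 (edgeR adjusted p = 0.0181). Uqcrq and Uqcr11, small subunits, rose by 0.32 ± 0.10 and 0.19 ± 0.06, with edgeR adjusted p of 0.0460 and 0.0494.

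Complex I, the NADH dehydrogenase, had 6 of its 36 genes called and 35 of 36 with a change above 0. Ndufv1, which binds NADH and the flavin, was at 76.2, 80.4, 72.0, 80.3 and 80.4 CPM in WT at night and at 90.5, 96.9, 92.2, 85.3 and 84.4 CPM in KO at night, with no overlap. Ndufs7, an iron-sulfur subunit next to the quinone site, was at 42.1, 45.4, 41.0, 47.7 and 48.1 CPM in WT at night and at 52.3, 58.4, 51.7, 49.3 and 49.3 CPM in KO at night, again with no overlap. Ndufv1 rose by 0.21 ± 0.05 and Ndufs7 by 0.22 ± 0.06, with edgeR adjusted p of 0.0221 and 0.0232. Ndufa9 (0.19 ± 0.05), Ndufa11 (0.20 ± 0.06) and Ndufa8 (0.19 ± 0.06) were also called. For Ndufa9 the groups overlapped, with KO night library 4 at 47.9 CPM among WT values of 46.1 to 51.1 CPM.

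Of the 8 complex I assembly factors, which build the complex but are not part of it, 1 was called. Ndufaf3 was at 15.01, 15.8, 14.2, 16.6 and 14.5 CPM in WT at night and 17.01, 20.1, 16.8, 16.1 and 18.3 CPM in KO at night. The ranges overlapped through KO night library 4, and the rise was 0.22 ± 0.06 (edgeR adjusted p = 0.0274). The median over the 8 was 0.03, with 4 above 0.

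Complex II, which also serves the tricarboxylic acid cycle, had 2 of 4 genes called. Sdhd, a membrane anchor, rose by 0.20 ± 0.06 and Sdhb, the iron-sulfur subunit, by 0.16 ± 0.05 (edgeR adjusted p of 0.0384 and 0.0435). Sdha, the flavoprotein, was at 231 to 244 CPM in 4 WT night libraries and 222 CPM in WT night library 3, and its change of 0.15 ± 0.05 was not called (edgeR adjusted p = 0.0512). Complex IV, the cytochrome c oxidase, had none of its 14 nuclear genes called at night, although 13 had a change above 0 and the median was 0.13. A called count differing between complexes was not tested.

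**Figure D3:**
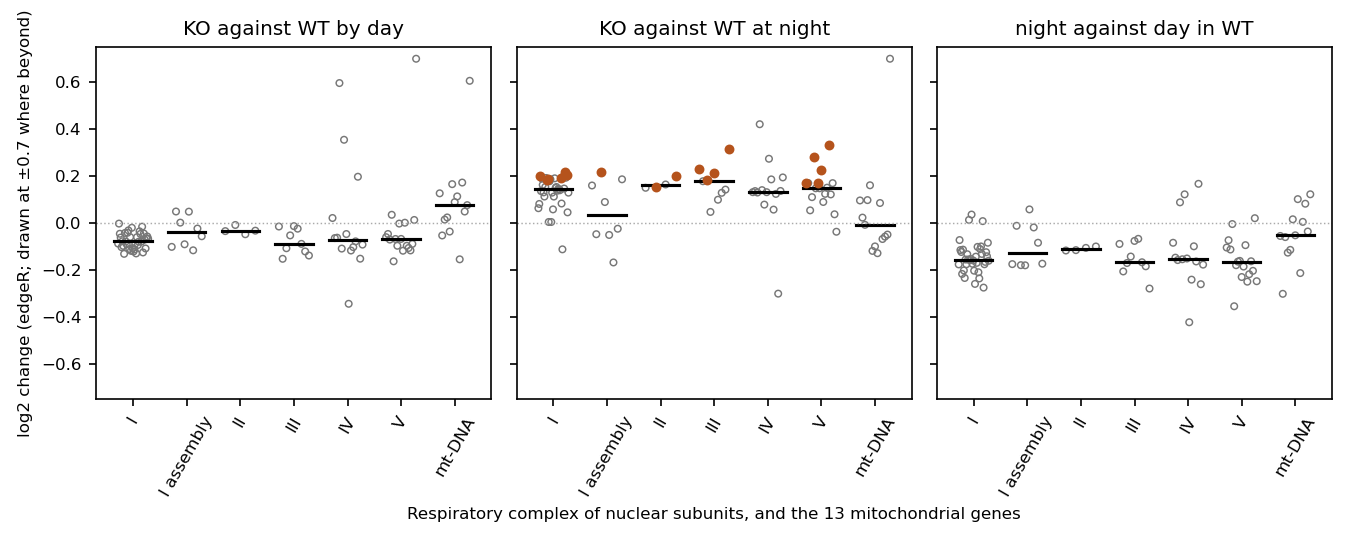
Each point is the edgeR log2 change of 1 gene in 3 comparisons (panels), grouped by complex for the nuclear genes with the 13 mitochondrial genes at the right; bars are medians, filled points passed the adjusted p under 0.05, and values beyond 0.7 are drawn at 0.7. Filled points are present at night in KO against WT and in neither of the other comparisons; by day the nuclear medians lie below 0.

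**Figure D4:**
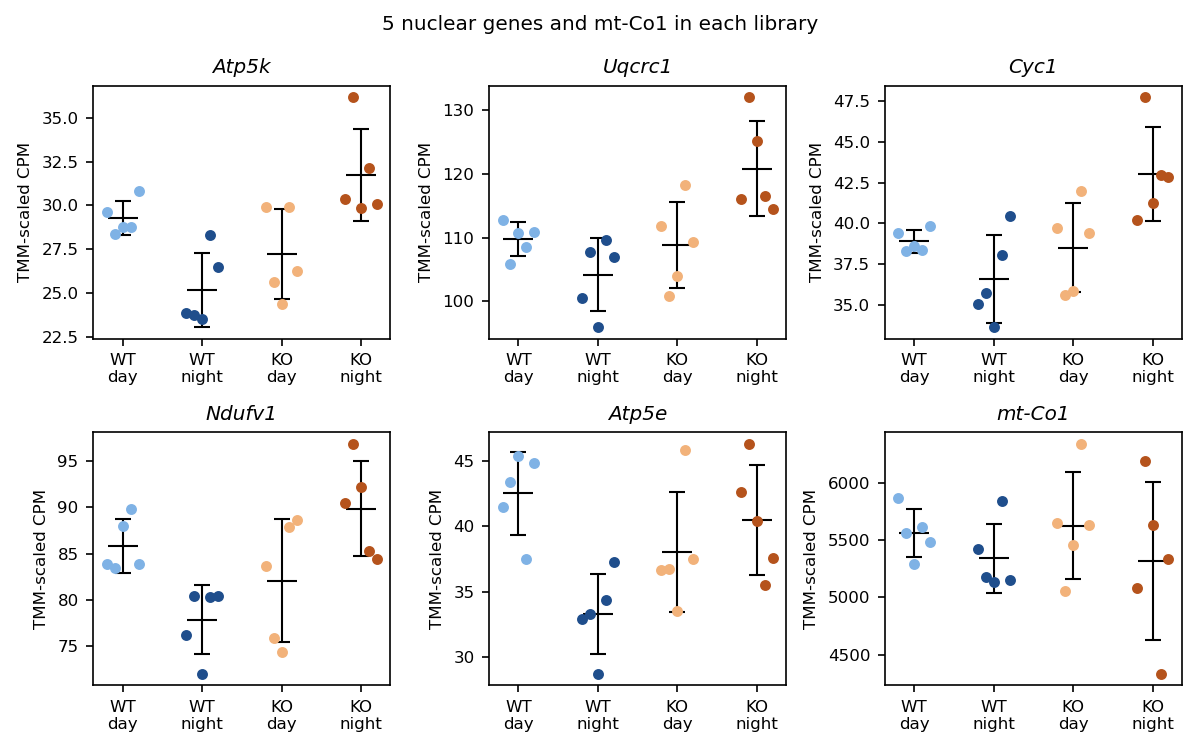
Points are the TMM-scaled CPM of 1 library each, by group; black bars are the mean and SD (n = 5), and the vertical axes do not start at 0. The 5 nuclear genes shown are among the 18 called at night, and the KO night points of Atp5k, Uqcrc1 and Ndufv1 lie above all WT night points, while mt-Co1 in the 2 night groups overlaps.

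In the 250 bases before the start of transcription, as RefSeq places it in GRCm38.p6, 74 of the 88 nuclear genes could be searched for the letters of sites known from respiratory genes. The core of the NRF1 site, CGCATGCG, which reads the same on both strands, was found in 8 of the 74 (10.8%) and in 2.32% of 17492 protein-coding genes. The other letters searched on both strands were CCGGAAGT for GABPA, found in 4.05% of the 74 and 4.26% of all, TCAAGGTCA for ERR alpha (1.35% and 0.36%), AAGATGGCG for YY1 (1.35% and 0.84%) and GGGCGG for Sp1 (40.5% and 45.8%). These are matches of letters, not shown sites of binding. Of the 14 called genes with a sequence, 3 held the NRF1 core. The matches are shown with the bases around them, because NRF1 is a textbook regulator of respiratory genes, read 5′ to 3′ on the gene's strand with the core in capitals.
Atp5k: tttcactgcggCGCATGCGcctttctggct
Ndufa11: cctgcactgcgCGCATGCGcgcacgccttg
Ndufa8: gtcgctggagaCGCATGCGc
Atp5g2: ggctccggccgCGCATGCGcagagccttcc
Atp5j: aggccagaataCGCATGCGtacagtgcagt
Atp5l: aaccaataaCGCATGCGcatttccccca
Cox6a1: caggaacggggCGCATGCGcgctctcgctc
Ndufaf4: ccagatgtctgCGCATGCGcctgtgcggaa

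The stretches lie at chr5:108434430-108434459 (minus strand) for Atp5k, chr17:56717692-56717721 (plus) for Ndufa11, chr2:36049339-36049358 (minus) for Ndufa8, chr15:102671070-102671099 (minus) for Atp5g2 and chr16:84835105-84835134 (minus) for Atp5j. Those of Atp5l, Cox6a1 and Ndufaf4 lie at chr9:44920965-44920992 (minus), chr5:115349101-115349130 (minus) and chr4:24897960-24897989 (plus). GENCODE M21 places an exon of the same gene over the stretch of Atp5k, Ndufa8, Atp5g2 and Atp5j, and an exon of Gabpa and of Gm42903 over those of Atp5j and Cox6a1. In KO at night Atp5k, Ndufa11 and Ndufa8 rose, and the changes of the other 5 ran from 0.09 (Ndufaf4) to 0.15 (Atp5g2), not called. The message of Nrf1 itself fell in KO at night by 0.28 ± 0.07 on the log2 scale (edgeR adjusted p = 0.0185).

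By day none of the 101 genes was called between KO and WT by edgeR or by DESeq2, where 0.113% of all genes were called by edgeR. An unadjusted p under 0.05 was found for 5 of 88 nuclear genes, 1 of 13 mitochondrial genes and 2133 of all 22181 genes tested. Atp5s had the largest change by day, 1.96 (edgeR adjusted p = 0.236), and was at 13.8, 13.02, 14.5, 14.3 and 259 CPM in KO by day, so that KO day library 5 alone lay outside the range of WT by day, 13.5 to 25.8 CPM, on the high side. The nuclear median was -0.07, with 77 of 88 below 0 (-0.093 to -0.033 with 1 library left out), and the mitochondrial median 0.08, with 10 of 13 above 0 (0.033 to 0.14). All 36 complex I genes, all 9 of complex III and all 4 of complex II were below 0 by day, none of them called. The day and night values of KO against WT thus lay on either side of 0 for most nuclear genes, which is the difference that the interaction of genotype and time measures. No gene of all 22181 was called for the interaction by edgeR (0%), 58 of 88 nuclear and 2 of 13 mitochondrial genes had an unadjusted p under 0.05, as did 4910 of all genes tested, and DESeq2 called 13 of the 101 and 1166 of 17042 genes in all (6.84%). Leaving out 1 library gave 36 calls by edgeR without KO night library 4 (6.76% of all genes called). It gave 19 without WT night library 4 (6.95%), 6 without KO day library 4 (3.205%) and 1 without KO day library 1 (2.12%). Atp5k had the smallest p, with a difference of 0.44 ± 0.09 between the night and day changes (edgeR adjusted p = 0.0576). The median was 0.22 over the nuclear genes (0.15 to 0.25 with 1 library left out), -0.03 over the mitochondrial genes and 0.00 over all genes tested.

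From day to night in WT, none of the 101 genes was called by edgeR (0.275% of all genes were). An unadjusted p under 0.05 was found for 53 of 88 nuclear genes, 1 of 13 mitochondrial genes and 3533 of all 22181 genes tested. DESeq2 called 4 lower, Atp5e, Atp5j2, Ndufb6 and Ndufs5, and 390 of 17042 genes in all (2.29%). edgeR called 4 lower as well without KO night library 4 (0.801% of all genes called). It called Atp5e alone without KO night library 2 (0.550%) or KO day library 4 (0.358%). The nuclear median was -0.15, with 80 of 88 below 0 (-0.18 to -0.12 with 1 library left out), and the mitochondrial median -0.05, with 8 of 13 below 0. Atp5e was at 41.5, 43.4, 45.4, 37.5 and 44.9 CPM in WT by day, above every WT night value given earlier, and its change of -0.35 ± 0.08 had an edgeR adjusted p of 0.0599. Without WT night libraries 1, 2 and 3 the nuclear median was -0.06. From day to night in KO none was called by edgeR, where 0.0721% of all genes were. Unadjusted p under 0.05 was found for 17 of 88 nuclear genes, 4 of 13 mitochondrial genes and 3917 of all 22181 genes tested. DESeq2 called Atp5k higher and mt-Cytb lower at night, with 3.30% of all genes called. The nuclear median was 0.05 and the mitochondrial -0.08, and with 1 library left out they ran from 0.0053 to 0.10 and from -0.15 to -0.041. These comparisons share libraries with those between the genotypes and are not independent of them.

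Averaged over both times, edgeR called 1.32% of all genes, 0.793% higher, and of the genes described here Cox6a2 alone. Its mean of 1.01 CPM over all 20 libraries is just above the minimum of 1 CPM and both WT group means were below it, so it is in the set through its KO libraries, and its values are given as a description. Cox6a2 encodes the heart and skeletal muscle form of cytochrome c oxidase subunit VIa, which some neurons also express. It was at 0.818, 0.684, 1.02, 0.629 and 0.844 CPM in WT by day and 0.822, 0.867, 0.759, 1.04 and 0.815 CPM in WT at night. In KO it was at 1.18, 1.10, 1.08, 1.27 and 1.46 CPM by day and 1.10, 1.36, 1.17, 0.949 and 1.19 CPM at night. KO night library 4 was the one KO library inside the WT range, and the difference was 0.51 ± 0.11 on the log2 scale (1.42-fold, edgeR adjusted p = 0.0288).

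Cox6a2 lies on the strand opposite to Itgad, and the strand setting of the counting is not given. Of protein-coding genes inside an opposite-strand gene 5.23% had 0 counts, against 99.8% of those inside a same-strand gene. Whether the reads of Cox6a2 and Itgad were told apart was not tested. Itgad had means of 1.81 and 1.59 CPM in WT by day and at night and 2.14 and 2.02 CPM in KO; its part in the Cox6a2 values was not tested. The call was lost without WT day library 2, WT night library 1, WT night library 3, KO day library 5 or KO night library 3. It was also lost in the 14 libraries with matching times. In these fits 0.210% to 0.474% of all genes were called, against 1.32% as reported. The summed striated muscle markers ranged from 15.8 to 19.9 CPM in WT at night and 18.98 to 22.2 CPM in KO at night, with 0 of 7 called; the part of muscle RNA was not tested. The neighbours of the minimum were Cox7a1 at 1.07 and Cox6b2 at 1.29 CPM above it, and Ndufa4l2 at 0.837 and Cox4i2 at 0.617 CPM below it.

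Per kilobase of exon, the highest nuclear genes of each complex were Ndufc2 (68.8) and Ndufa4 (60.02) in complex I, Sdha (60.6) and Sdhd (36.3) in complex II, and Uqcr10 (80.4) and Uqcr11 (58.7) in complex III. In complex IV they were Cox8a (175.7) and Cox6a1 (114.1), and in complex V Atp5a1 (145.5) and Atp5o (134.8), all as mean CPM per kilobase over the 20 libraries. Where a subunit has a general and a tissue-restricted gene, the general form was far higher on this scale: Cox6a1 at 114.1 against Cox6a2 at 1.48, Cox6b1 at 111.5 against the testis form Cox6b2 at 1.16, and Cox7a2 at 60.2 against the muscle form Cox7a1 at 1.996. The c-ring genes Atp5g3, Atp5g2 and Atp5g1 stood at 36.4, 19.1 and 10.8. Cox8b, the muscle form of Cox8a, had a mean of 0.120 CPM and was outside the set.

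Cox4i1, the general form of cytochrome c oxidase subunit IV, and Ndufa13 were listed at 0 counts in all 20 libraries. Both lie inside a gene annotated on the same strand, Gm20388 for Cox4i1 and Yjefn3 for Ndufa13. Gm20388 stood between 527 and 580 CPM and Yjefn3 between 4.20 and 6.72 CPM. Of 446 protein-coding genes that lie inside another gene of the same strand, 445 (99.8%) had 0 counts, while 42 of 803 genes (5.23%) that lie inside an opposite-strand gene had 0. So the 0 of Cox4i1 and Ndufa13 cannot be read as a level, and none is given for them.

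The mitochondrial genes spanned a wide range. mt-Co1, the catalytic subunit of complex IV, made up 59.2 to 64.9% of the mitochondrial sum in every library, at 3535 CPM per kilobase. mt-Nd1 (903), mt-Cytb (598), mt-Nd2 (321), mt-Co3 (316) and mt-Co2 (271) followed, then mt-Nd5 (244), mt-Nd4 (236), mt-Atp6 (132.8), mt-Nd3 (89.2), mt-Nd4l (21.99) and mt-Atp8 (15.2), each as mean CPM per kilobase. mt-Nd6 had a mean of 322 on this scale over 20 libraries and 250.2 without KO night library 3, so its place among these genes rests on that library. Mitochondrial DNA has copies in the nuclear genome that are annotated as genes of their own, and reads that match 2 places can be lost or moved in counting. Of the 50-base stretches of each transcript, all (100%) of those of mt-Co2, 99.9% of mt-Co3, 99.5% of mt-Atp6, 98.8% of mt-Nd4l and 98.0% of mt-Nd3 were found in another gene as well. The shares were 62.2% for mt-Nd4 and 51.1% for mt-Co1, and at most 8.19% for the other 6. The annotated copies held reads: Gm28437 had a mean of 290.2 CPM, Gm29216 220.6, Gm28661 159.8 and Gm10925 123.7 CPM. So the order of levels among these genes was not free of the counting, and changes are compared only within a gene.

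**Figure D5:**
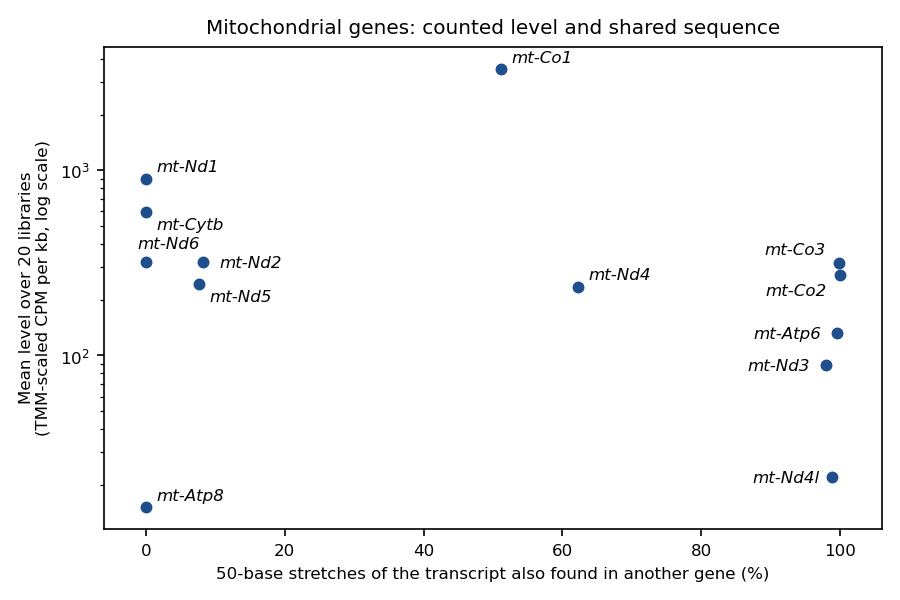
Each point is 1 mitochondrial gene, with the share of its 50-base stretches found in another gene (horizontal axis, %) and its mean TMM-scaled CPM per kilobase over 20 libraries (vertical axis, log scale). 5 genes stand at 98.0% or more, all at 316 CPM per kilobase or less, and mt-Co1 is the highest at 3535.

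In none of the 6 comparisons as reported did edgeR call a mitochondrial gene. Among the alternatives on all 20 libraries, edgeR called mt-Nd6 higher in KO at night without a filter on low counts, and mt-Cytb lower from day to night in KO with the trend on gene span taken out. mt-Co1 was at 5417, 5173, 5132, 5838 and 5148 CPM in WT at night and at 5085, 6190, 5634, 4334 and 5335 CPM in KO at night, a change of -0.01 (edgeR adjusted p = 0.962). mt-Cytb, the mitochondrial subunit of complex III, was at 622, 667, 721, 724 and 670.2 CPM in WT at night and at 525, 713, 621, 601 and 678 CPM in KO at night, with overlap and a change of -0.12 (edgeR adjusted p = 0.343). Cyc1 and Uqcrc1 of the same complex rose in that comparison; the difference between those nuclear genes and mt-Cytb was not tested. Over the 6 genes with less than 10% of shared stretches the median change at night was -0.07.

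mt-Nd6, the only one of the 13 transcribed from the light strand, varied most. It was at 99.6, 116, 124, 98.5 and 96.7 CPM in WT by day and 174, 105, 99.9, 89.6 and 113 CPM in WT at night. In KO it was at 102, 159, 139, 101.2 and 311 CPM by day and 69.7, 116, 871, 85.0 and 268 CPM at night. KO night library 3 was far above every other library, and the KO and WT ranges overlapped. The change at night was 1.28 on the log2 scale (edgeR adjusted p = 0.0740), and it was called without a filter on low counts, without KO night library 1 and without KO night library 4. The labels call the libraries strand-specific, and the part of strand in the mt-Nd6 values was not tested.

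Genes around the respiratory chain were described by lists, over the same night comparison, in which 11.9% of all genes were called, 5.18% higher. The calls of these lists and of the markers below are those of the fit as reported, and none is given for the other fits. Of all genes tested, 6 were called with agreeing time labels, 4 with the time field and 11 without WT night libraries 1, 2 and 3. Of 75 mitochondrial ribosomal protein genes tested, which build the ribosome that translates the 13 mitochondrial messages, 9 rose and 2 fell, with a median of 0.12. Of 83 cytosolic ribosomal protein genes 1 rose, with a median of 0.08. Of 16 tricarboxylic acid cycle genes 2 rose, among them Idh3b (0.20 ± 0.04), and 1 fell, Suclg2 (-0.21 ± 0.06). Of 10 carriers of the mitochondrial membranes, Ucp2 rose (0.22 ± 0.07).

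Factors that transcribe, replicate or package mitochondrial DNA showed 0 of 14 called, and of 14 genes of mitochondrial RNA processing and stability Fastk (0.15 ± 0.05) and Grsf1 (0.18 ± 0.06) rose. Of 13 nuclear regulators of respiratory genes, Esrra, which encodes ERR alpha, rose by 0.27 ± 0.07, while Nrf1 (-0.28 ± 0.07), Gabpb1 (-0.18 ± 0.06), Esrrg (-0.34 ± 0.09) and Ppargc1b (-0.36 ± 0.12) fell. Of 35 genes of electron carriers and assembly factors outside the name rule 0 were called (median 0.09). All these are edgeR log2 changes ± SE with adjusted p under 0.05 for those said to have risen or fallen.

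Other measures were compared between the night groups, and the ranges of the sums given here overlapped, except for the choroid plexus markers. The 5 choroid plexus markers summed to 16.7 to 20.9 CPM in WT at night and 13.8 to 16.4 CPM in KO at night. Markers of oligodendrocytes summed to 2121 to 2622 CPM in WT at night and 2293 to 3086 CPM in KO at night, and 3 of 8 rose. Of 7 neuronal markers tested 2 rose, while Rbfox3 (-0.36, edgeR adjusted p = 0.0689) and Syt1 (-0.12, edgeR adjusted p = 0.160) lay below 0, and 1 of 8 astrocyte markers rose, with sums of 1807 to 1999 against 1758 to 1929 CPM for neurons and 2156 to 2405 against 2262 to 2560 CPM for astrocytes. Among these markers Tubb3 was listed at 0 in every library. The microglial marker P2ry12 (-0.18, 1 of 8), the ependymal marker Tmem212 (-0.31, 1 of 6), the choroid plexus marker Kcnj13 (-0.57, 1 of 5) and the red cell marker Alas2 (-0.45, 1 of 5) fell. P2ry12 and Tmem212 went against their lists, in which 7 of 8 microglial (median 0.07) and 5 of 6 ependymal markers (median 0.13) lay above 0. Above 0 were also 1 of 5 choroid plexus (median -0.18) and 2 of 5 red cell markers (median -0.02). Of the endothelial markers 0 of 7 were called, of the pituitary 0 of 7 and of those of neighbouring brain regions 0 of 5. Long RNAs retained in the nucleus summed to 5040 to 6559 CPM in WT at night and 4230 to 5786 CPM in KO at night, and 2 of 7 fell, Snhg14 (-0.37 ± 0.09) and Kcnq1ot1 (-0.30 ± 0.09). Malat1, the most abundant of them, stood at 2855, 2643, 3032, 2561 and 2557 CPM in WT at night and at 2203, 2089.9, 2167, 2724 and 2648 CPM in KO at night, and was not called (edgeR adjusted p = 0.0759). KO night libraries 1, 2 and 3 were below every WT night library, and KO night libraries 4 and 5 were inside the WT range. The part of these measures in the change of the nuclear genes was not tested.

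The trend of levels with gene span differed between the genotypes at night. The nuclear genes described here are short, with a median span of 7419 bases against 17646 for all genes tested. The slope of a library's deviations on log10 gene span was 0.057, 0.035, 0.098, -0.009 and 0.019 in the WT night libraries and -0.035, -0.070, -0.040, -0.030 and -0.018 in the KO night libraries. Only WT night library 4 was below 0 in WT, and the genotypes did not overlap at night. With the trend on gene span taken out of each library, 4 genes were called at night (Atp5k, Cyc1, Ndufa9 and Uqcrc1), with a nuclear median of 0.08, and 5.32% of all genes were called. With the trend on exonic length taken out, 13 were called, and 10.5% of all genes.

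The median deviation of the nuclear genes from their mean over the 20 libraries was lowest in WT night library 3 (-0.20) and highest in KO night library 2 (0.21), and in those libraries the medians of complexes I, II, III, IV and V ran from -0.24 to -0.18 and from 0.20 to 0.24, and those of the assembly factors were -0.11 and 0.08. The 2 libraries were picked by the median that these groups make up, so the values of the groups are a description. The cytosolic ribosomal protein genes stood at -0.21 and 0.20 in the same 2 libraries. In KO night library 4 the nuclear median was -0.11 and that of the cytosolic ribosomal proteins -0.25. The mitochondrial median was -0.02 in WT night library 3 and 0.12 in KO night library 2.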

How the data were processed

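The authors deposited raw counts per gene for each library. They were made with HISAT2 and featureCounts on mm10, per the submitters' processing notes; versions and strand settings are not given in the sources used here. One deposited count table, of WT night library 3, is laid out differently (unit listed as other) and holds the same kind of raw counts. From these counts, edgeR 4.0.16 (R 4.3.3; TMM; low genes dropped by filterByExpr, minimum count 10) fitted the 4 group means over 22181 genes, and 6 contrasts were tested by the quasi-likelihood F-test, with adjusted p under 0.05 called. The script was tested on simulated data. Alternatives were DESeq2 1.42.0, other scalings, no filter, length trends removed (smooth span 0.3), other time labels and leaving out libraries; 2 on shared sequence were added after seeing the data. Gene spans, exons and 50-base stretches came from GENCODE M21 (GRCm38), and promoters from RefSeq (GRCm38.p6). The genes and lists were chosen with earlier results of these data known. Named were the 13 mitochondrial genes, up to 10 called genes per comparison by smallest p, the 2 highest nuclear subunits per kilobase and complex, isoform pairs and genes at the minimum; other called genes, NRF1-core genes and Atp5s were added after their values were seen. Some genes that these rules name are not reported here. Same-numbered libraries had correlations of -0.17 to 0.30 in their deviations from group means, 3 of 30 over 0.1.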

Additional observations from a re-analysis of the deposited data

Results flagged for a closer look

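In groups of 5 libraries, a library was set apart where its gap to the next exceeded 0.71 of the group's range, which chance gives in about 5% of groups; 188 groups were looked at and 15 were set apart. Atp5s, a factor related to ATP synthase by name, stood at 259 CPM in KO day library 5 against 13.02 to 14.5 CPM in the other KO day libraries, and at 25.8 CPM in WT day library 3 against 13.5 to 14.1 CPM. mt-Nd6 stood at 871 CPM in KO night library 3 (the others 69.7 to 268), at 311 in KO day library 5 (101.2 to 159) and at 174 in WT night library 1 (89.6 to 113).

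WT night library 4 was the highest of its group for mt-Co2 (199.99 CPM; the others 164 to 170.4), mt-Co3 (278), mt-Nd3 (35.5), Ndufa4 (93.1) and the mitochondrial sum (9282). KO night library 2 was high for mt-Co3 (289), WT day library 1 for mt-Nd2 (361) and mt-Atp6 (100.4), KO day library 2 was low for mt-Nd5 (385), and WT night library 1 was low for Cox8b (0.0274).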

How the results depend on the processing

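The 18 calls of KO against WT at night (11.9% of all genes called) became 24 with DESeq2 (18.1%), 20 with totals without mitochondrial genes (12.2%) and 17 with RLE scaling (11.8%). They became 15 without a filter (5.77%), 13 with the exonic length trend removed (10.5%), 10 with the replicate block (7.62%) and 4 with the gene span trend removed (5.32%). The count was 0 with the time field (0.0179%), with agreeing time labels (0.0263%) and without WT night 1, 2 and 3 (0.0479%). Leaving out 1 library at a time gave 1 to 51. The replicate numbers did not pair the libraries, and 4 of 20 correlated best with their own number. The 1 averaged call (1.32% of all genes called) became 0 with the time field (0.134%), with agreeing time labels (0.254%) and without WT night 1, 2 and 3 (0.0827%). It became 0 to 2 with 1 library left out, where 0.210% to 5.65% of all genes were called. Where edgeR called 0, alternatives gave 1 by day (time field, 0.665% of all genes called). From day to night in WT they gave 4 with DESeq2 (2.29%) and 1 without a filter (0.290%), and 0 to 4 with 1 library left out. In KO they gave 2 with DESeq2 (3.30%) and 1 with the span trend removed (0.442%), and 0 to 1 with 1 library left out. For the interaction they gave 13 with DESeq2 (6.84%) and 1 without a filter (0.281%), and 0 to 36 with 1 library left out.

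The nuclear median at night was 0.023 with agreeing labels, 0.040 with the time field and 0.049 without WT night 1, 2 and 3. By day it was 0.033 with the time field, from day to night in WT -0.059 without WT night 1, 2 and 3, and in KO -0.064 with agreeing labels and -0.11 with the time field. For the interaction it was 0.072 and 0.0057. The mitochondrial interaction median was -0.20 with agreeing labels, -0.16 with the span trend removed and -0.16 over genes with little shared sequence. With nuclear copies added to the mitochondrial sum, the log2 ratio was -0.74 (WT day), -0.82 (WT night), -0.84 (KO day) and -0.69 (KO night). No called change reversed in any of the 30 alternative fits. The low genes Cox6a2, Cox7a1 and Cox6b2, near 1 CPM, are limited by counting.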
